A study of Mus musculus with 6 samples.

Results

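The Cyp2d and Cyp2j genes encode cytochromes P450, haem enzymes of the endoplasmic reticulum that oxidise drugs, steroids and fatty acids. The 10 genes described here were the rows of 24927 in the deposited tables whose gene symbol was Cyp2d9, Cyp2d10, Cyp2d11, Cyp2d12, Cyp2d13, Cyp2d22, Cyp2d26, Cyp2d40, Cyp2j5 or Cyp2j6, and all 10 had a row. Whole livers of C57BL/6 mice, an inbred laboratory strain, were profiled by RNA-seq in 3 libraries labelled Cdkl3-/- and 3 labelled wild type. Cdkl3 encodes a kinase of the cyclin-dependent kinase-like family. The samples of both groups were labelled male, fed chow and 10 months old. The series text places the deletion in the liver, and the sources used here do not name the allele, any Cre driver or the origin of the control mice. No label says in words that each library came from its own mouse, so p-values reflect only how these libraries vary, which may be technical.

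Values are FPKM, fragments divided by transcript length and by the library's counted fragments, so levels of different genes are compared per length. Depth ran from 24530000 to 39550000 counted reads in the libraries labelled knockout and from 20460000 to 48610000 in those labelled wild type. One read on a 1 kb transcript was worth 0.0206 to 0.0489 FPKM. Mitochondrially encoded transcripts took 63.2% to 70.1% of the FPKM in libraries labelled knockout and 70.5% to 73.9% in those labelled wild type. Gapdh, a glycolytic enzyme transcript that most cells hold at a high level, stood at 0.217 to 0.237 FPKM in libraries labelled knockout and at 0 to 0.0237 FPKM in those labelled wild type. The hepatocyte transcripts Alb and Apob were abundant in all 6 libraries, Alb at 743 to 1613 FPKM in libraries labelled knockout and at 261 to 425 FPKM in those labelled wild type.

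Cdkl3 and the sex-linked genes were read first, as a check of the labels. Cdkl3 stood at 0.0761, 0.146 and 0.195 FPKM in libraries labelled knockout, against 0.166, 0.0883 and 0.119 FPKM in libraries labelled wild type, which overlap. The log2 difference was 0.02 (adjusted p = 0.84, limma with no filter). These are 10 to 31 reads and 13 to 32 reads on the whole gene, and whether a deleted exon would be seen in them was not tested. Xist, the RNA of the inactive X chromosome, stood at 0.0125 to 0.0273 FPKM in libraries labelled knockout and at 192 to 292 FPKM in those labelled wild type. The Y-linked Ddx3y stood at 38.2 to 50.8 FPKM in libraries labelled knockout and at 0.0694 to 0.207 FPKM in those labelled wild type. Eif2s3y stood at 44.9 to 52.2 FPKM in libraries labelled knockout and at 0.341 to 0.881 FPKM in those labelled wild type, Uty at 7.02 to 8.8 and at 0.0084 to 0.0499 FPKM, and Kdm5d at 1.99 to 2.17 and at 0 FPKM. The male label of the libraries labelled wild type therefore goes against their sex-linked transcripts, and labelled genotype and sex cannot be told apart in any value below. The groups are called by their labels throughout.

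Cytochromes P450 take electrons from NADPH through cytochrome P450 reductase and, for some reactions, through cytochrome b5. Mouse Cyp2d genes sit side by side on chromosome 15. Cyp2d9 encodes a steroid 16-alpha hydroxylase known for being more abundant in male than in female mouse liver, and Cyp2d22 is often taken as the mouse counterpart of human CYP2D6. CYP2J enzymes turn arachidonic acid into epoxyeicosatrienoic acids, which soluble epoxide hydrolase then hydrolyses, and Cyp2j5 is known as an abundant transcript of mouse liver and kidney.

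Start regions of 5 Cyp2d genes share a short arrangement of letters that those of the Cyp2j genes do not have. A RefSeq window was matched by symbol for 7 of the 10 genes and for Cyp2j9, and not for Cyp2d12, Cyp2d13 and Cyp2d22. Each line below gives the last 130 of the 250 bases before the annotated start, 5′ to 3′ on the gene's strand, from RefSeq on GRCm38.p6 (chromosome 15 for Cyp2d). Capitals mark CAAAG, letters known from binding sites of the liver factor HNF4, and TATAAA, the TATA box, on either strand (TTTATA is TATAAA read from the other strand). The 5 genes are shown because their windows align on this arrangement although their levels differ widely.
Cyp2d9: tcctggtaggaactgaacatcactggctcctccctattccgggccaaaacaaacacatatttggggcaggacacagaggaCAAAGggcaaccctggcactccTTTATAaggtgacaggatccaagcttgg
Cyp2d10: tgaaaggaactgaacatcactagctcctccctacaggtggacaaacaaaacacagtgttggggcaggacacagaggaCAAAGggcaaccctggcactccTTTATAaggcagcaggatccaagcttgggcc
Cyp2d11: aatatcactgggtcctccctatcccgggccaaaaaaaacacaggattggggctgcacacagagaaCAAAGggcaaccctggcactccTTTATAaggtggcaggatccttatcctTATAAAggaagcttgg
Cyp2d40: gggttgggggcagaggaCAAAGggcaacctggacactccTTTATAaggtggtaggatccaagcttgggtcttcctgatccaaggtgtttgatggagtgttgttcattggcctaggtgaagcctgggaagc
Cyp2d26: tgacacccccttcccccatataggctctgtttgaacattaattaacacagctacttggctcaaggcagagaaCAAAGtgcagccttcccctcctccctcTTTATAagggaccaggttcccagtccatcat

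In Cyp2d9, Cyp2d10, Cyp2d11 and Cyp2d40, TTTATA began 22 bases after the start of CAAAG, and in Cyp2d26 it began 27 bases after. An offset of 22 was found in 8 of 32851 mouse start windows (0.024%), 4 of them of these Cyp2d genes. An offset of 27 was found in 3 windows (0.0091%). CAAAG alone was in 48.6% and TATAAA in 12.4% of all windows, and the offset and the TATA box were chosen after these windows had been read. Counted from -1 at the base before the annotated start, CAAAG and TTTATA began at -50 and -28 in Cyp2d9 and at -113 and -91 in Cyp2d40, so annotated starts differ between copies. Over the 250 bases the Cyp2d9 window was 82.3% identical to that of Cyp2d10 and 82.3% to that of Cyp2d11, and Cyp2d10 and Cyp2d11 were 75.8% identical. The other pairs of the windows compared were at most 54.7% identical. The letters TTCNNNGAA (STAT5 and BCL6, in 7.02% of all windows) and ATTGAT (HNF6, 6.72%) had no match in them, and CCGGAA (an ETS core, 12%) matched once, in Cyp2d9, with both strands searched. A match of letters is not a binding site, and no match says only that the letters are not in the window.

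The corresponding windows of Cyp2j5, Cyp2j6 and their chromosome 4 neighbour Cyp2j9 are shown for contrast with the Cyp2d set, with the same letters in capitals.
Cyp2j5: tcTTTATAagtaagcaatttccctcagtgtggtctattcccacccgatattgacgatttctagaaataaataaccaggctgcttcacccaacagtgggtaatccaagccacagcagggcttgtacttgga
Cyp2j6: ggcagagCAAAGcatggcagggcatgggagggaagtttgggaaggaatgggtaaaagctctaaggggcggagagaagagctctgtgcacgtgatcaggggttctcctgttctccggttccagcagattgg
Cyp2j9: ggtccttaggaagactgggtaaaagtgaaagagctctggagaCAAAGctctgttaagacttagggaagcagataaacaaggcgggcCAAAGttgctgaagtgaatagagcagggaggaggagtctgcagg

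None of these 3 held the pair at either offset. In Cyp2j5 a TTTATA began at -128, and in Cyp2j9 the C/EBP letters TTGCNNAA (9.56% of all windows) matched once. Identity between the 3 windows was 42.6% to 46.1%. The windows run over the coordinates chr4:96664120-96664249 for Cyp2j5, chr4:96553652-96553781 for Cyp2j6 and chr4:96591486-96591615 for Cyp2j9, all on the minus strand. Those of Cyp2d are chr15:82452247-82452376 on the plus strand for Cyp2d9 and, on the minus strand, chr15:82407195-82407324 for Cyp2d10, chr15:82394023-82394152 for Cyp2d11, chr15:82764123-82764252 for Cyp2d40 and chr15:82794246-82794375 for Cyp2d26.

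Of the 10 genes, 7 reached the filter of 1 FPKM in 3 or more libraries and were tested with limma over 5673 genes. Of these 7, 6 rose in the libraries labelled knockout at a Benjamini-Hochberg adjusted p under 0.05 (Cyp2d9, Cyp2d10, Cyp2d13, Cyp2d22, Cyp2d26 and Cyp2j6) and 0 fell. Over all tested genes 33.7% rose, 20.4% fell and so 54.1% changed. That balance turned under other scalings. Median centring gave 25.4% that rose and 33.3% that fell, quantile normalization 25.2% and 31.0%, and scaling without mitochondrial transcripts 25.3% and 28.2%. The 0 that fell were 0 also at an unadjusted p under 0.05. Cyp2d9, Cyp2d10 and Cyp2d26 passed the filter through the libraries labelled knockout alone, so they had to be higher there, and the count of 6 is a description. The groups did not overlap for 5 of the 7, all 5 with the libraries labelled knockout above. Over all tested genes 38.0% did not overlap with knockout above and 25.8% with knockout below. For Cyp2d9, Cyp2d10 and Cyp2d26 the filter fixed this too. Of the 5, only Cyp2d13 and Cyp2d22 were free to overlap, so the count of 5 is also a description. The median log2 difference of the 7 was 1.32, the value of Cyp2d9, whose direction the filter fixed. The median of all tested genes was 0.12. In bulk liver, fewer cells of a type and less RNA per cell cannot be told apart.

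**Figure D1:**
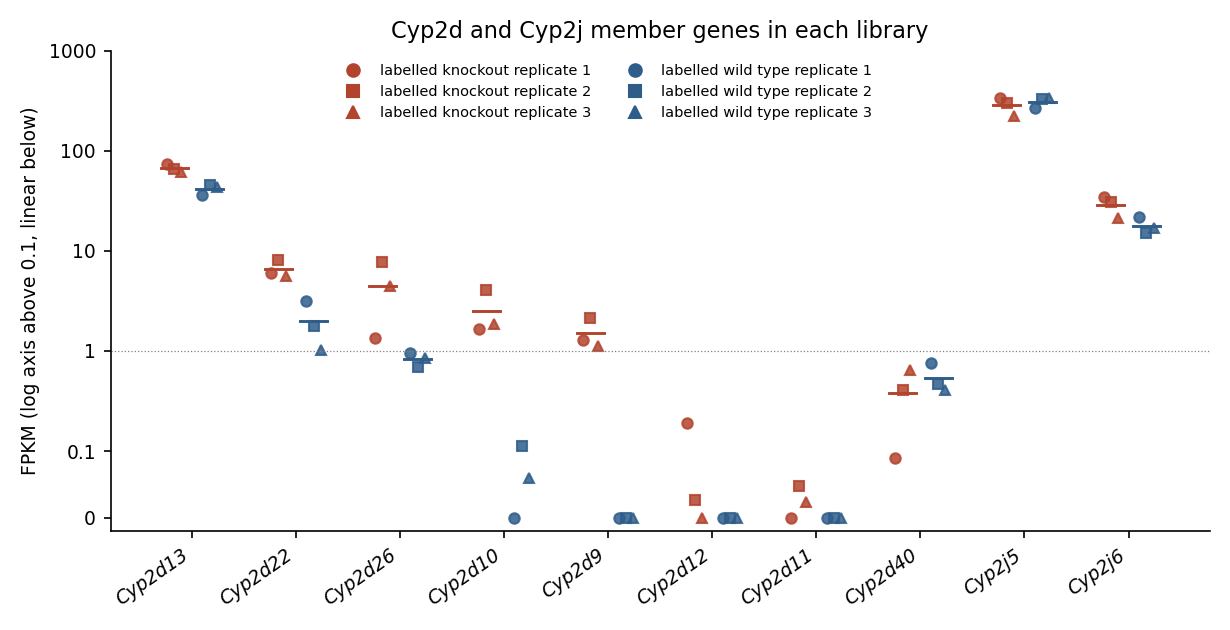
FPKM of the 10 genes in each of 6 libraries, on an axis that is logarithmic above 0.1 and linear below. Horizontal bars are group means (n = 3, none where a library is at 0) and the dotted line is the filter of 1 FPKM; Cyp2j5 lies at 223 to 338 FPKM in all 6 libraries and Cyp2d9 at 0 in the 3 labelled wild type.

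The plot of the members by library shows levels spread over several powers of 10. In the libraries labelled knockout the order of the means was Cyp2j5, Cyp2d13, Cyp2j6, Cyp2d22, Cyp2d26, Cyp2d10, Cyp2d9, Cyp2d40, Cyp2d12 and Cyp2d11. The libraries of neighbours in this order did not overlap among the first 4 genes. From Cyp2d22 and Cyp2d26 on they overlapped for each pair but Cyp2d9 and Cyp2d40. In the libraries labelled wild type the order was Cyp2j5, Cyp2d13, Cyp2j6, Cyp2d22, Cyp2d26, Cyp2d40 and Cyp2d10, with Cyp2d9, Cyp2d11 and Cyp2d12 listed at 0. There the one neighbouring pair with overlapping libraries among the 7 detected genes was Cyp2d26 and Cyp2d40.

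Cyp2d13 was the most abundant Cyp2d row. RefSeq on GRCm38.p6 annotates it as a transcribed pseudogene at chr15:82636750-82642045, so the row is RNA for which no working enzyme is annotated. It measured 73.8, 65.3 and 61.0 FPKM in libraries labelled knockout, against 36.1, 45.1 and 43.4 FPKM in libraries labelled wild type. The groups did not overlap. The means were 66.7 ± 6.51 and 41.5 ± 4.76 FPKM (SD, n = 3 each), a ratio of 1.61. The log2(FPKM + 1) difference was 0.67 (SE 0.17, 95% interval 0.29 to 1.06, adjusted p = 0.011). With each library centred on its median it was 0.39 (adjusted p = 0.12) and with mitochondrial transcripts left out of the scaling 0.41 (adjusted p = 0.14), so the call depended on the scaling.

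The Cyp2d13 locus lies inside Gm49431, a gene annotated as antisense at chr15:82621092-82660905 on GRCm38. The sources used here do not say whether the counting used strand, so reads of the 2 rows may not be separate. Gm49431 measured 5.39, 10.6 and 10.4 FPKM in libraries labelled knockout, against 19.4, 9.08 and 18.2 FPKM in libraries labelled wild type. Its groups overlapped and it was not called (log2 difference -0.74, adjusted p = 0.093), though with the trend on GC content and length removed it was (log2 difference -1.57, adjusted p = 0.0023). Gm49431 was named after its values were seen. M21 does not list Cyp2d13. A length of 3250 bases put its values at 0.000 from whole reads in all 6 libraries, where the next best lengths, 4576 and 1326 bases, were off by up to 0.144 read. At 3250 bases they are 5880, 8390 and 5294 reads in the libraries labelled knockout and 4228, 7118 and 2885 reads in the libraries labelled wild type.

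Cyp2d22, the counterpart of CYP2D6 named above, came next among the Cyp2d genes. It measured 6.04, 8.14 and 5.55 FPKM in libraries labelled knockout, against 3.16, 1.79 and 1.03 FPKM in libraries labelled wild type. The groups did not overlap, and the lowest library labelled wild type was replicate 3. The means were 6.58 ± 1.38 and 1.99 ± 1.08 FPKM (SD, n = 3 each), a ratio of 3.3. The log2 difference was 1.39 (SE 0.27, 95% interval 0.76 to 2.02, adjusted p = 0.0037), and 0.95 with the trend on GC content and length removed (adjusted p = 0.012).

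Cyp2d9, the male-predominant steroid hydroxylase, measured 1.30, 2.15 and 1.13 FPKM in libraries labelled knockout and was listed at 0 in all 3 libraries labelled wild type. These are 85, 226 and 80 reads against none. No fold can be given against a group at 0. The log2(FPKM + 1) difference was 1.32 (SE 0.16, 95% interval 0.95 to 1.69, adjusted p = 0.00047), and 0.64 with the trend on GC content and length removed (adjusted p = 0.0097). The pseudocount sets most of its size, which was 3.97 with a pseudocount of 0.1 (adjusted p = 0.00024). Cyp2d9 is annotated at chr15:82433437-82456845 on GRCm38.

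Cyp2d10, the closest relative of Cyp2d9 among the rows above 1 FPKM, measured 1.66, 4.08 and 1.84 FPKM in libraries labelled knockout, against 0, 0.112 and 0.0593 FPKM in libraries labelled wild type. These are 67, 266 and 81 reads against 0, 9 and 2 reads, with no overlap. The log2 difference was 1.67 (SE 0.24, 95% interval 1.12 to 2.23, adjusted p = 0.00091), and 0.90 with the trend on GC content and length removed (adjusted p = 0.0070). With a pseudocount of 0.1 it was 4.01 (adjusted p = 0.00046). Knockout replicate 2 was the highest library for both Cyp2d9 and Cyp2d10. The deviations of the 2 genes from their group means correlated at r = 0.95 over 6 libraries, which share depth and composition. Cyp2d9 was at 0 in every library labelled wild type, so this r rests on the libraries labelled knockout alone.

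Cyp2d26 had the widest standard error of the 7 tested genes. It measured 1.34, 7.66 and 4.47 FPKM in libraries labelled knockout, against 0.960, 0.689 and 0.845 FPKM in libraries labelled wild type. The groups did not overlap, but knockout replicate 1 stood close to the libraries labelled wild type. The means were 4.49 ± 3.16 and 0.831 ± 0.136 FPKM (SD, n = 3 each), a ratio of 5.4. The log2 difference was 1.39 (SE 0.43, 95% interval 0.39 to 2.40, adjusted p = 0.027), and the call was lost with the trend on GC content and length removed (log2 difference 0.65, adjusted p = 0.17). It was also lost after quantile normalization (log2 difference 1.05, adjusted p = 0.069) and with no filter (log2 difference 1.39, adjusted p = 0.078). It was lost when any 1 library other than knockout replicate 1 was left out, with differences of 0.97 to 1.44 and adjusted p of 0.052 to 0.081, and was 1.91 without knockout replicate 1 (adjusted p = 0.00058).

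Cyp2d11, Cyp2d12 and Cyp2d40 stayed under the filter. Cyp2d11 measured 0, 0.0477 and 0.0235 FPKM in libraries labelled knockout, at most 3 reads, and was listed at 0 in the libraries labelled wild type. Cyp2d12 measured 0.189, 0.0261 and 0 FPKM in libraries labelled knockout and was listed at 0 in those labelled wild type. Cyp2d40 went the other way in level, at 0.0903, 0.406 and 0.643 FPKM in libraries labelled knockout and 0.753, 0.467 and 0.406 FPKM in those labelled wild type, with overlap. With no filter, 0 of these 3 were called among 20529 genes, of which 20.5% were (differences of 0.03, 0.10 and -0.17, adjusted p of 0.3, 0.36 and 0.51). A start window with the same CAAAG and TTTATA spacing was thus shared by genes at 1 FPKM and more in the libraries labelled knockout and by genes below it.

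Taken as sums, the 8 Cyp2d genes measured 84.4, 87.8 and 74.6 FPKM in libraries labelled knockout, against 41.0, 48.1 and 45.7 FPKM in libraries labelled wild type. Cyp2d13 made up 87.4%, 74.4% and 81.7% of this sum in the libraries labelled knockout, against 88.1%, 93.6% and 94.9% in the libraries labelled wild type. Without it the sum was 10.6, 22.5 and 13.7 FPKM in libraries labelled knockout and 4.87, 3.06 and 2.34 FPKM in those labelled wild type. Most of the Cyp2d signal in either group was therefore the pseudogene row, and the protein-coding rows did not overlap between groups in sum.

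**Figure D2:**
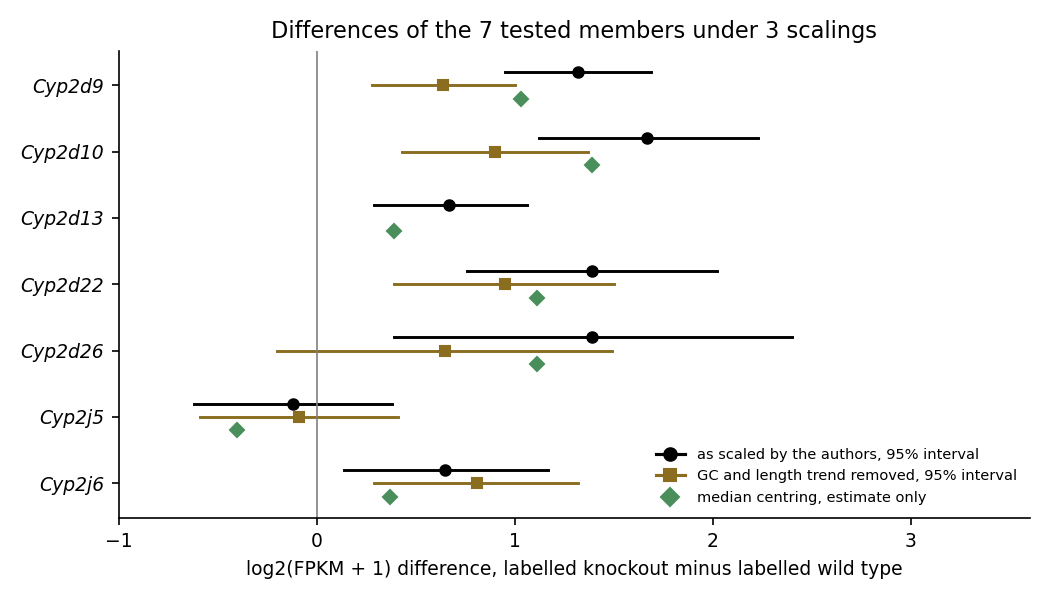
Log2(FPKM + 1) differences (labelled knockout minus labelled wild type) of the 7 tested genes as scaled by the authors and with the trend on GC content and length removed, each with its 95% interval, and with median centring (estimate only). Cyp2d13 has no trend value; Cyp2d9 is at 1.32 as scaled by the authors and at 0.64 with the trend removed, and Cyp2j5 stays on the negative side in all 3.

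The plot of differences under 3 scalings sets the Cyp2d genes beside the Cyp2j pair. Removing the trend lowered the Cyp2d9, Cyp2d10, Cyp2d22 and Cyp2d26 differences and raised that of Cyp2j6. The transcripts of these Cyp2d genes are 53.5% to 54.4% GC, and both Cyp2j transcripts are 42.7% GC. With the trend removed 4 of the 6 genes with a value rose, where 34.4% of 5539 genes did. Cyp2d9 and Cyp2d10, among these 4, passed the filter through the libraries labelled knockout alone, so this count is a description too.

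Cyp2j5, the arachidonic acid epoxygenase of liver and kidney, was by far the most abundant of the 10. It measured 337, 304 and 223 FPKM in libraries labelled knockout, against 266, 326 and 338 FPKM in libraries labelled wild type. The groups overlapped, and the lowest library was knockout replicate 3. The means were 288 ± 58.8 and 310 ± 38.7 FPKM (SD, n = 3 each), a ratio of 0.93. The log2 difference was -0.12 (SE 0.22, 95% interval -0.62 to 0.38, adjusted p = 0.67), so neither a fall by 0.62 nor a rise by 0.38 lies outside the interval. It was called lower after quantile normalization (log2 difference -0.68, adjusted p = 0.035) and stood at 0.05 without knockout replicate 3.

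Cyp2j6, a second epoxygenase of the family, measured 34.3, 31.0 and 21.4 FPKM in libraries labelled knockout, against 21.6, 15.1 and 16.9 FPKM in libraries labelled wild type. The groups overlapped, since knockout replicate 3 fell just below wild type replicate 1. The means were 28.9 ± 6.66 and 17.9 ± 3.34 FPKM (SD, n = 3 each), a ratio of 1.62. The log2 difference was 0.65 (SE 0.22, 95% interval 0.14 to 1.17, adjusted p = 0.037). The call was lost with median centring (log2 difference 0.37, adjusted p = 0.18), with mitochondrial transcripts left out of the scaling (log2 difference 0.40, adjusted p = 0.26), with no filter (log2 difference 0.65, adjusted p = 0.092), and without knockout replicate 1 or 2 or wild type replicate 2 or 3 (0.52 to 0.62, adjusted p of 0.1 to 0.12).

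Within a library a ratio of 2 rows does not depend on a constant factor applied to that library, though it does on quantile normalization, and 4 such ratios were computed after the values had been seen. Cyp2j6 over Cyp2j5 was 0.102, 0.102 and 0.0963 in the libraries labelled knockout, against 0.0812, 0.0463 and 0.0501 in the libraries labelled wild type. The groups did not overlap, at a fold of 1.74. Cyp2d13 over Cyp2j5 was 0.219, 0.215 and 0.274 in the libraries labelled knockout, against 0.136, 0.138 and 0.128 in the libraries labelled wild type, a fold of 1.75 with no overlap. The exact two-sided permutation p was 0.1 for each, the smallest that 3 against 3 libraries allow, and 0.13 when adjusted over the 4 ratios. Cyp2d22 over Cyp2d13 overlapped, at 0.0819, 0.125 and 0.0911 in the libraries labelled knockout and 0.0875, 0.0397 and 0.0236 in those labelled wild type (exact permutation p = 0.2, the same after adjustment). None of the 4 passed a test, and a ratio does not say which row differs.

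**Figure D3:**
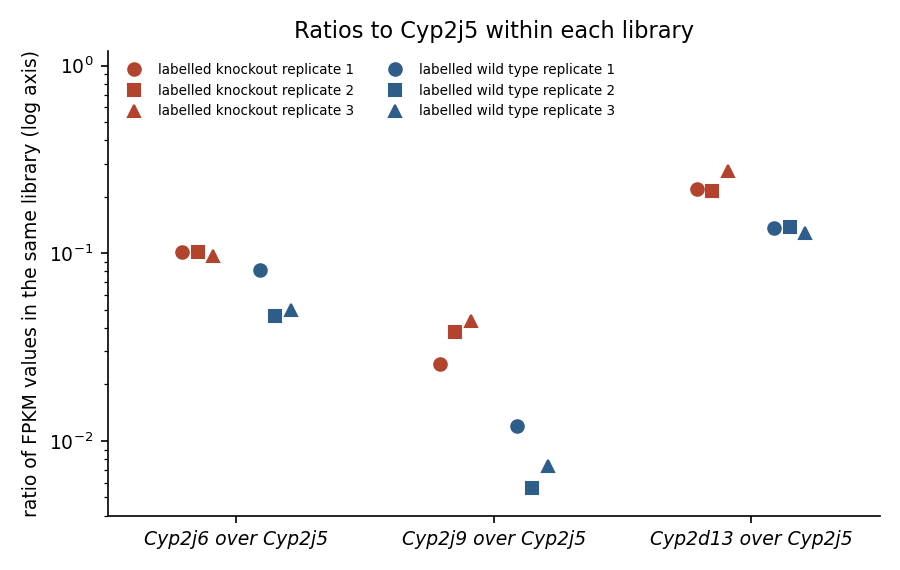
Ratios of Cyp2j6, Cyp2j9 and Cyp2d13 to Cyp2j5 in FPKM within each library, on a log axis, 3 libraries per label. The libraries labelled knockout sit above those labelled wild type in all 3 ratios, for example 0.0963 to 0.102 against 0.0463 to 0.0812 for Cyp2j6.

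Cyp2j9, a further member of the family that lies between Cyp2j6 and Cyp2j5 on chromosome 4, was the one other Cyp2j row to pass the filter. It measured 8.71, 11.6 and 9.73 FPKM in libraries labelled knockout, against 3.18, 1.82 and 2.48 FPKM in libraries labelled wild type. The groups did not overlap, and the log2 difference was 1.67 (SE 0.20, adjusted p = 0.00043). Cyp2j9 over Cyp2j5, drawn in the plot of ratios to Cyp2j5, was 0.0258, 0.0382 and 0.0437 in the libraries labelled knockout, against 0.012, 0.00559 and 0.00732 in the libraries labelled wild type (fold 4.45, exact permutation p = 0.1). Over GRCm38, Cyp2j6 lies at chr4:96516138-96553661, Cyp2j9 at chr4:96568429-96591578 and Cyp2j5 at chr4:96628773-96664154, all on the minus strand. The log2 differences of these 3 in chromosome order were 0.65, 1.67 and -0.12.

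**Figure D4:**
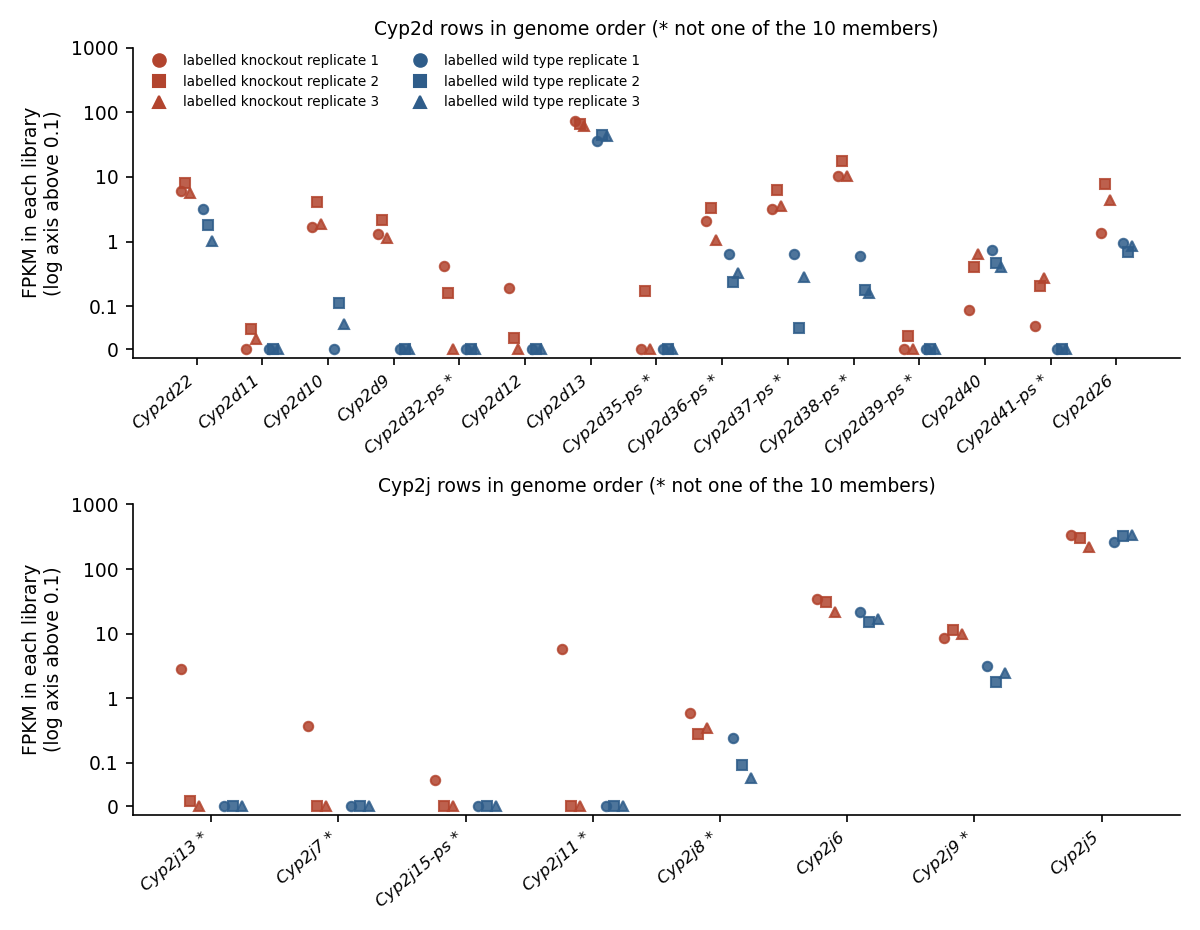
FPKM in each library of the Cyp2d rows (above) and Cyp2j rows (below) in their order along the chromosome, on an axis logarithmic above 0.1 and linear below, with asterisks for rows outside the 10. Cyp2d38-ps reaches 10.2 to 17.7 FPKM in libraries labelled knockout against 0.159 to 0.603 in those labelled wild type, and Cyp2d9 and Cyp2d11 are at 0 in the 3 libraries labelled wild type.

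The plot of the rows in chromosome order places 3 pseudogenes with values above 1 FPKM between Cyp2d13 and Cyp2d40. Cyp2d38-ps measured 10.2, 17.7 and 10.3 FPKM in libraries labelled knockout, against 0.603, 0.179 and 0.159 FPKM in libraries labelled wild type (log2 difference 3.36, adjusted p = 7.8e-05). Cyp2d37-ps measured 3.14, 6.36 and 3.59 FPKM in libraries labelled knockout, against 0.633, 0.0489 and 0.279 FPKM in libraries labelled wild type (log2 difference 2.00, adjusted p = 0.0006). These rows and Cyp2d36-ps passed the filter through the libraries labelled knockout alone, so they had to be higher there. Cyp2d38-ps and Cyp2d37-ps were also called higher with the trend on GC content and length removed (log2 difference 2.39, adjusted p = 9.3e-05, and 1.29, adjusted p = 0.0018). At its M21 length the values of Cyp2d37-ps were off whole reads by 0.02 to 0.46 read. Another length may have been used for it, so its value with the trend removed is less certain. Cyp2d36-ps, named after its values were seen, measured 2.1, 3.35 and 1.07 FPKM in libraries labelled knockout and 0.641, 0.237 and 0.332 FPKM in those labelled wild type (log2 difference 1.12, adjusted p = 0.0082), and lost the call with the trend removed (log2 difference 0.37, adjusted p = 0.22).

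Reads of near-identical copies may be split between rows, and the sources used here do not say how such reads were handled. Of the 50-base windows of their M21 transcripts, 37.2% in Cyp2d11, 35.8% in Cyp2d10 and 21.8% in Cyp2d9 also occur in the transcripts of other genes. For windows of 100 bases the shares were 12.2%, 11.7% and 7.91%. Cyp2d10 was 90.7% identical to Cyp2d11 and 88.4% to Cyp2d9 over the transcript, so the division of reads among these 3 is uncertain. The shares at 50 bases were 14.5% in Cyp2d40, 9.49% in Cyp2d26, 7.61% in Cyp2d12 and 4.13% in Cyp2d22. Cyp2j6 (0.422%), Cyp2j5 (0.174%) and Cyp2j9 (0%) shared almost none, and Cyp2d13 could not be examined in this way because M21 does not list it.

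Knockout replicate 1 held kidney transcripts. Kap, a transcript of the kidney proximal tubule, measured 5264, 4.18 and 5.72 FPKM in libraries labelled knockout and 0.0785, 0 and 0 FPKM in those labelled wild type. The proximal tubule list (12 of 14 genes with a row) summed to 5548, 205 and 150 FPKM in libraries labelled knockout and 162, 99 and 116 FPKM in those labelled wild type. Kap made up most of the sum in knockout replicate 1. Slc27a2 made up most of it in the other 5 libraries, at 192 and 138 FPKM and at 155, 94.1 and 111 FPKM. The list for other kidney segments (8 of 12) summed to 29.5, 0.35 and 0.435 FPKM in libraries labelled knockout and to 1.45, 0.766 and 2.88 FPKM in those labelled wild type. In knockout replicate 1 Cyp2j11 measured 5.89 FPKM and Cyp2j13 2.82 FPKM. Cyp2j13 reached 0.0108 FPKM in 1 other library and Cyp2j11 was listed at 0 in the other 5. Cyp2d12 (0.189 FPKM) was also highest there, and so were Cyp2j5 and Cyp2j6 among the libraries labelled knockout. Cyp2d13 was highest there as well (73.8 FPKM). Without knockout replicate 1, 5 of the 7 tested genes rose, where 33.2% of all tested genes did, and Cyp2d13 was among them (0.60, adjusted p = 0.032). Cyp2d9, Cyp2d10 and Cyp2d26, also among the 5, passed the filter through the libraries labelled knockout alone. The count of 5 in this fit is therefore a description. In that fit the Cyp2j6 difference was 0.52 (adjusted p = 0.1), and the part of kidney RNA in it was not tested.

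**Figure D5:**
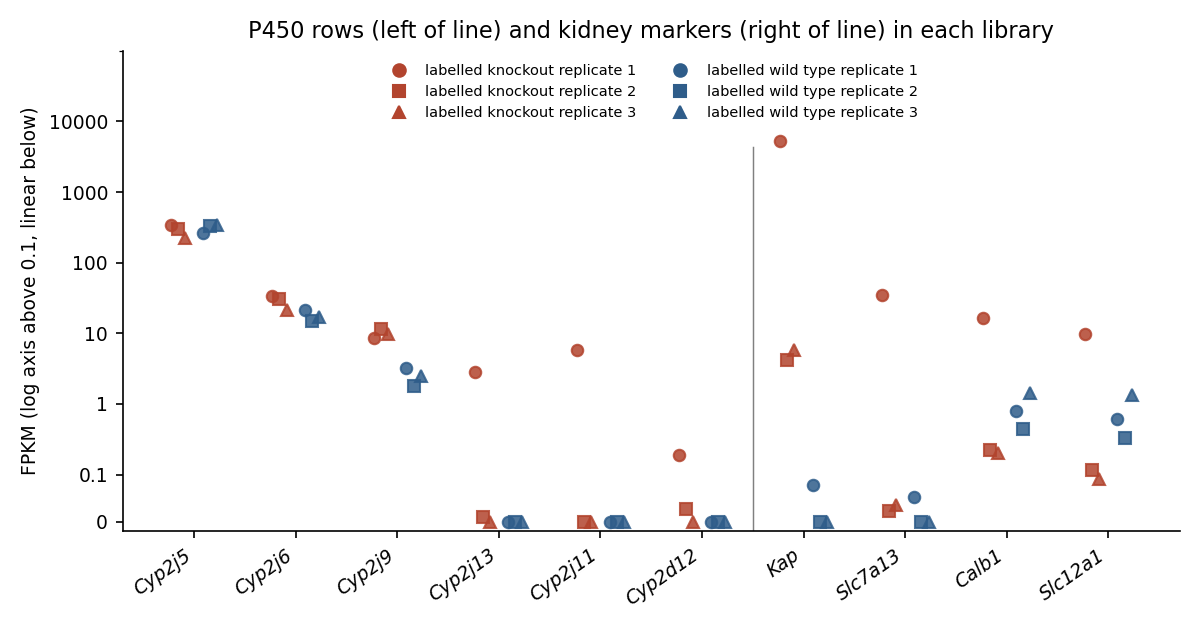
FPKM of 6 Cyp2j and Cyp2d rows (left of the line) and 4 kidney markers (right) in each library, on an axis logarithmic above 0.1 and linear below. Knockout replicate 1 stands apart for Kap (5264 FPKM), Slc7a13 (35.3), Cyp2j11 (5.89) and Cyp2j13 (2.82), and not for Cyp2j9 (8.71).

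The plot of P450 rows beside kidney markers shows that Cyp2j9 was lowest in knockout replicate 1 among the libraries labelled knockout. Slc7a13, a proximal tubule transporter, measured 35.3, 0.0236 and 0.035 FPKM in libraries labelled knockout and 0.0518, 0 and 0 FPKM in those labelled wild type. Calb1, of the distal tubule, measured 16.6, 0.224 and 0.201 FPKM in libraries labelled knockout and 0.79, 0.437 and 1.41 FPKM in those labelled wild type. Slc12a1, of the thick ascending limb, measured 9.77, 0.118 and 0.0909 FPKM in libraries labelled knockout and 0.621, 0.328 and 1.36 FPKM in those labelled wild type.

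The partners of these enzymes were read from lists. For electron transfer, 4 of 7 listed genes were tested, of which 2 rose and 0 fell, with a median difference of 0.39. Over all tested genes 33.7% rose and 20.4% fell, with a median of 0.12. Pgrmc2, a haem-binding membrane protein, measured 19.4, 24.2 and 21.2 FPKM in libraries labelled knockout, against 8.49, 2.96 and 3.51 FPKM in libraries labelled wild type (log2 difference 2.02, adjusted p = 0.0013). Cyb5b, the outer mitochondrial membrane form of cytochrome b5, measured 65.3, 50.3 and 62.2 FPKM in libraries labelled knockout, against 30.5, 16.7 and 27 FPKM in libraries labelled wild type (log2 difference 1.26, adjusted p = 0.0033). Both rose, while Cyb5a, the microsomal cytochrome b5, and Pgrmc1 had log2 differences of -0.48 each (adjusted p = 0.076 for both) and were called lower with the trend on GC content and length removed (log2 difference -1.01, adjusted p = 0.004, and -0.84, adjusted p = 0.015). Por, the reductase itself, stood at 0.0186 to 0.162 FPKM in libraries labelled knockout and at 0 to 0.0138 FPKM in those labelled wild type, below the filter.

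For haem synthesis, 3 of 13 listed genes were tested, of which 0 rose and 2 fell, with a median difference of -0.43. The shares over all tested genes were 33.7% and 20.4%. Cpox, which oxidises coproporphyrinogen, measured 29.1, 29.7 and 28.8 FPKM in libraries labelled knockout, against 46.8, 58.9 and 63.6 FPKM in libraries labelled wild type (log2 difference -0.92, adjusted p = 0.0028). Fech, which inserts iron into the ring, measured 5.67, 5.34 and 5.55 FPKM in libraries labelled knockout, against 7.2, 7.47 and 8.33 FPKM in libraries labelled wild type (log2 difference -0.41, adjusted p = 0.047), and was not called with the trend removed (log2 difference -0.26, adjusted p = 0.16). Alas1, the first and rate-limiting enzyme of the pathway in liver, measured 1.05, 2.5 and 1.58 FPKM in libraries labelled knockout, against 2.71, 3.08 and 2.01 FPKM in libraries labelled wild type, with overlap (log2 difference -0.43, adjusted p = 0.14), and was called lower with the trend removed (log2 difference -0.63, adjusted p = 0.039).

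Of 18 listed genes of arachidonic acid and epoxide metabolism, not all of which act on CYP2J products, 4 were tested. Of these 2 rose and 0 fell, with a median difference of 1.85, where 33.7% of all tested genes rose and 20.4% fell. Ephx2, the soluble epoxide hydrolase, measured 26.2, 53.8 and 26.3 FPKM in libraries labelled knockout, against 2.17, 0.87 and 0.846 FPKM in libraries labelled wild type (log2 difference 3.95, adjusted p = 0.00013). Fabp1, the liver fatty acid binding protein, measured 302, 355 and 283 FPKM in libraries labelled knockout, against 50.1, 36 and 22.5 FPKM in libraries labelled wild type (log2 difference 3.14, adjusted p = 0.00015). Neither overlapped between the groups. Ptgs1 and Ptges3 of prostaglandin synthesis were not called (log2 difference 0.56, adjusted p = 0.07, and -0.20, adjusted p = 0.37). Of 22 listed P450 genes of the Cyp2c, Cyp2e and related families, 16 were tested, of which 8 rose and 5 fell, with a median difference of 0.53. Of the 8, Cyp2c55 and Cyp2f2 passed the filter through the libraries labelled knockout alone, so they had to be higher there. Among the 16, Cyp2e1 (log2 difference 3.15, adjusted p = 0.00032), Cyp2c70 (log2 difference 2.34, adjusted p = 0.00013), Cyp2c29 (log2 difference 2.16, adjusted p = 0.00011) and Cyp2c39 (log2 difference -2.50, adjusted p = 0.00014) had the smallest adjusted p.

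Of 32 listed regulators of liver P450 genes, 19 were tested, of which 8 rose and 3 fell, with a median difference of -0.02. Over all tested genes 33.7% rose and 20.4% fell, with a median of 0.12, and the list as a set was not tested. With the trend on GC content and length removed 5 regulators rose and 4 fell, where 34.4% and 17.5% of all genes did. Bcl6, a repressor, measured 7.55, 12.6 and 8.19 FPKM in libraries labelled knockout, against 2.46, 1.6 and 3.55 FPKM in libraries labelled wild type (log2 difference 1.57, adjusted p = 0.0018). Nr1h4, the bile acid receptor, measured 16.3, 19.2 and 14.6 FPKM in libraries labelled knockout, against 7.62, 4.64 and 5.22 FPKM in libraries labelled wild type (log2 difference 1.39, adjusted p = 0.001). Tox, an HMG-box protein that passed the filter through the libraries labelled wild type alone, was called lower (log2 difference -1.26, adjusted p = 0.00036), as was the zinc finger gene Zfp455 (log2 difference -1.10, adjusted p = 0.001, and -0.47 with the trend on GC content and length removed, adjusted p = 0.022). None of these values says which factor acts on a Cyp2d or Cyp2j gene.

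Genes next to the arrays were read in the same way. Beside the Cyp2d array 2 of 10 listed neighbours were tested and both were called higher. Both passed the filter through the libraries labelled knockout alone, so that direction was fixed. They were Ndufa6, a complex I subunit (log2 difference 1.72, adjusted p = 0.00027), and Tcf20 (log2 difference 0.51, adjusted p = 0.034), the second of which was not called with the trend on GC content and length removed (adjusted p = 0.052). Beside the Cyp2j array 5 of 7 were tested, of which 0 rose and 1 fell, with a median difference of 0.18. The shares over all tested genes were 33.7% and 20.4%. The one that fell was Fggy, at 6.19, 5.14 and 4.39 FPKM in libraries labelled knockout, against 10.2, 11 and 9.94 FPKM in libraries labelled wild type (log2 difference -0.88, adjusted p = 0.0034). Tm2d1, Nfia, Usp1 and Hook1 were not called (0.35, -0.24, 0.23 and 0.18, adjusted p of 0.091, 0.26, 0.3 and 0.39). With the trend removed, Hook1 was called higher (log2 difference 0.59, adjusted p = 0.02), so that 1 rose and 1 fell.

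The genes whose log2(FPKM + 1) values ran most like those of Cyp2d9 over the 6 libraries were Stbd1 (r = 0.9998), Mpc1-ps (0.9997) and Nmi (0.9994), and 800 tested genes had r above 0.95. Those most like Cyp2j5 were Mfsd4b1 (0.9646), Frmd4b (0.9295) and Rnf141 (0.9287), and 1 tested gene had r above 0.95. Mfsd4b1 measured 12.8, 9.4 and 6.89 FPKM in libraries labelled knockout, against 7.93, 11 and 11.8 FPKM in libraries labelled wild type, and so had the order of Cyp2j5 within either group. The points share libraries and depth, and a pattern that follows the labels, as that of Cyp2d9 does, is shared by many genes.

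Markers of other liver cells were called in part, where 54.1% of all tested genes were. Of stellate cell markers 3 were tested, of which 0 rose and 3 fell. Of endothelial markers 4 were tested, of which 0 rose and 3 fell, and of Kupffer cell and macrophage markers 3, of which 0 rose and 1 fell. The endothelial Cdh5 passed the filter through the libraries labelled wild type alone, so it had to be lower in those labelled knockout. Of cholangiocyte markers 2 were tested and 1 rose, of intestinal markers 1 was tested and rose (Fabp2, at 27 to 55.4 FPKM in libraries labelled knockout and at 1.87 to 6.33 FPKM in those labelled wild type), and 0 blood markers passed the filter. With the trend on GC content and length removed, 2 of the stellate markers fell, and 0 of the cholangiocyte markers rose and 1 fell. Of 7 tested hepatocyte markers 5 rose and 1 fell. Among those 5, Serpina1a passed the filter through the libraries labelled knockout alone, so it had to be higher there. The part of these cell types in the Cyp2d and Cyp2j differences was not tested.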

How the data were processed

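RNA-seq was done on 3 whole-liver libraries labelled Cdkl3 knockout and 3 labelled wild type. The authors deposited 1 table per library with FPKM values, per the file headers. Per the submitters' processing notes, HISAT2 and GRCm39 were used, and no source used here gives the counting tool or annotation. The header of the table of knockout replicate 3 carries another sample code than its title, and the sample's label was used.

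Identifiers and symbols in a row did not name the same gene. FPKM multiplied by exon length (GENCODE M21, GRCm38) gave whole reads, to within 0.15 read and up to 40 reads, for 98.95% of 43305 values by symbol outside chromosome 1, for 30.49% by identifier and for 35.99% by symbol on chromosome 1. Symbols were used, and 1787 chromosome 1 rows and 127 rows without a symbol were left out, which leaves 23021. The same steps gave the depths. Read numbers quoted in the text are FPKM turned back with these lengths, and cover counting only.

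Limma 3.58.1 (R 4.3.3, trend and robust moderation) was run on log2(FPKM + 1), labelled genotype being the one term, over the 5673 genes that reached 1 FPKM in 3 or more libraries, at a Benjamini-Hochberg adjusted p under 0.05. Differences are labelled knockout minus labelled wild type on this scale, which understates low genes. Sequences came from RefSeq (GRCm38.p6) and M21. A simulation of the knockout against wild type comparison used each gene's mean and spread, independent noise between genes, and rises only. In it 67% of 100 genes changed by 1 and 93% of 100 changed by 2 were called, with 6 of 5473 unchanged genes. In the data 54.1% of tested genes were called, in both directions, so these shares need not hold there.

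The members and gene lists were chosen with earlier results of these data known. The text names the 10 members, up to 4 tested genes of each list by adjusted p, Cdkl3, sex-linked and kidney markers, and the 3 genes most like Cyp2d9 and Cyp2j5. Gapdh, Alb, Apob, Por and rows so marked were added after their values were seen. The alternatives were another pseudocount, other filters, 3 scalings, removal of a loess trend on GC content and length, no robust moderation, a stricter threshold, a replicate block and each library left out.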

Additional observations from a re-analysis of the deposited data

How the results depend on the processing

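Cyp2d9, Cyp2d10 and Cyp2d26 passed the filter of 1 FPKM through the libraries labelled knockout alone. The counts that follow are therefore descriptions wherever that filter was used. The count of 6 genes that rose and 0 that fell held under a pseudocount of 0.1 (33.4% of all genes higher, 20.3% lower). It also held without robust moderation (33.7%, 20.4%) and, chosen after seeing the data, with chromosome 1 rows included (33.8%, 20.3%). It was 4 and 0 with no filter (15.4% of all genes higher, 5.09% lower), with median centring (25.4%, 33.3%), with mitochondrial transcripts left out of the scaling (25.3%, 28.2%) and with the trend on GC content and length removed (34.4%, 17.5%). After quantile normalization 5 rose and 1, Cyp2j5, fell (25.2%, 31.0%). A filter of 10 FPKM left 3 of the genes to test, of which 2 rose (26.8%, 32.0%), and a threshold of 0.01 left 3 that rose (24.6%, 11.6%). Leaving out each library in turn gave 4 to 5 genes that rose and 0 that fell, with 27.8% to 34.5% of all genes higher. None of the 3 genes under the filter was called in the settings run. Median centring moved the median difference of all tested genes to -0.16, against 0.12 as deposited, quantile normalization to -0.13, and scaling without mitochondrial transcripts to -0.08. The one reversed value was Cyp2j5 without knockout replicate 3, at 0.05; without each library in turn it ran from -0.24 to 0.05 and was not called. Same-numbered libraries did not deviate together (r of -0.05, -0.10 and 0.18), so the numbers were not taken as pairs; with a replicate block 6 genes rose and 0 fell, and 1740 and 1031 of all tested genes. Genes under 1 FPKM rest on few reads, and arrays of close copies limit Cyp2d9, Cyp2d10 and Cyp2d11 at any depth.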
